A study of Homo sapiens with 12 samples.

Results

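Hydrogen peroxide (H2O2) was compared with no treatment in HK-2 cells that carried a control short hairpin RNA. HK-2 is an established, immortalised line of human proximal tubule epithelium. The comparison used 8 of the 12 libraries of the series: 4 from untreated cells (shNC) and 4 from cells given H2O2 at 150 µM for 48 h (shNC_H2O2). All 8 carried the same control hairpin, and every gene of the table that passed the filter on low counts was tested. The gene lists described below, and their members, were chosen with earlier results of these data known. The other 4 libraries (shYAP1_H2O2) came from cells with a hairpin against YAP1 that had also been given H2O2. They entered the fit of the spread, and their levels are given for some genes, but the hairpin against YAP1 is not described. Those genes were named largely for their difference with H2O2, so their levels there are no measure of the hairpin. Separate cultures behind the libraries of 1 group are not stated in the labels, so the p-values cover only the spread between the libraries as they are, which may be technical. The labels give no other features of the line, hairpin vector or culture. Any limits that these set on the groups as a model cannot be judged here.

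H2O2 oxidises cysteine thiols, breaks DNA and damages lipids, and cells remove it with catalase, peroxiredoxins and glutathione peroxidases. A sublethal dose given for days is a common way to drive cultured tubule cells out of the cell cycle, and the title of the series names persistent oxidative stress and tubular cell senescence. Senescent cells are known for a secretome of cytokines, proteases and matrix proteins. The proximal tubule reabsorbs most of the filtrate through apical transporters and endocytic receptors, sits on a laminin and collagen IV basement membrane, and tends to lose its adult transporters in culture.

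The libraries held 30789997 to 46582873 counts, and levels are given as CPM, parts per 1000000 counts of the scaled library, as mean ± SD over 4 libraries unless each library is listed. Untreated replicate 4 stood apart from the other untreated libraries. Mitochondrially encoded genes took 13.9% of its counts against 4.91% to 5.64% in the other 7, and the chi-square per degree of freedom of its counts was 138 to 159 with the other untreated libraries, against 2.85 to 6.39 in all other pairs of a group. Over the 11542 genes at 5 CPM or more, the median SD of log2 CPM was 0.133 in the untreated group, 0.0517 without replicate 4, and 0.0643 in the treated group. The libraries held epithelial markers: KRT8 from 474 ± 75.9 to 532 ± 10.2 CPM (log2 0.16 ± 0.09), a gene of simple epithelium that did not pass the test, lay beside PAX8, a nephron lineage factor that fell from 427 ± 18.8 to 244 ± 11.6 CPM (log2 -0.80 ± 0.08). Of the defining proximal tubule markers, the endocytic receptors LRP2 and CUBN, the phosphate carrier SLC34A1 and the water channel AQP1 were at or near 0, with means of at most 1.22 CPM in either group. The summed level of 6 markers of other nephron segments was 0.178 to 0.578 CPM in the untreated and 0.254 to 0.698 CPM in the treated libraries, with UMOD at 0, and that of 3 endothelial markers was 0.309 to 0.357 and 0.0634 to 0.302 CPM. The sum of 3 leukocyte markers was 1.06 to 1.63 and 1.14 to 1.35 CPM, nearly all of it CD14, with PTPRC at or near 0. The 5 fibroblast markers, among them LUM, summed to 99.1 to 105 and 208 to 228 CPM and are described with the collagens. The part of other cells in the results was not tested.

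The difference between the groups was wide. edgeR's quasi-likelihood test called 8971 of 19268 genes at an adjusted p under 0.05 (46.6%), 4612 higher and 4359 lower with H2O2. Part of this ran along chromosomes: 6289 genes lay in stretches where the median log2 difference of the 50 nearest tested genes was 0.15 or more in size, 3662 of them upward and 2627 downward. For this reason each gene was also tested after the median of its neighbours had been taken away. Then 4198 genes were higher and 4104 lower (43.1%), and 7074 genes (36.7%) were called in the same direction both ways, 3641 higher (18.9%) and 3433 lower (17.8%). Below, "rose" and "fell" are used for genes called in both fits, and the counts of a gene list are counts of such genes. Of these, 1226 were higher (6.36%) and 1059 lower (5.50%) by at least 2-fold in both fits, 364 and 378 by at least 4-fold, and 33 and 67 by at least 16-fold. By position-blind calls alone, 7.25% of genes were higher and 6.50% lower by at least 2-fold. Protein-coding genes are a nearer background for the gene lists: of 14035 tested, 3105 rose and 2719 fell. By position-blind calls 53.2% of them were called. Counts of a list are to be read against these shares, and no list was tested as a set. The CPM of the 4 treated and the 4 untreated libraries did not overlap for 48.0% of tested genes, 25.2% higher and 22.9% lower. In the stretches with no shift, 43.9% of 12685 genes were called, and 6.93% were higher and 5.89% lower by at least 2-fold. Without untreated replicate 4 and the third YAP1-hairpin library, whose mitochondrial share was also high (together the 2 mitochondrion-rich libraries), 48.5% of the genes then tested were called in both fits, 4765 higher and 4709 lower. Whether the oxidant or some other difference between the cultures set the chromosomal stretches cannot be told apart, since each group is 1 condition. The same holds for every single gene said below to differ with H2O2.

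CDH13, encoding a cadherin anchored to the membrane by a lipid tail, had the largest rise among genes at a mean of 5 CPM or more. Its level was 0.119, 0.527, 0.453 and 0.285 CPM in the untreated libraries and 55.1, 52.1, 54.0 and 53.3 CPM with H2O2. Every treated library lay far above every untreated one, and the log2 difference was 7.22 ± 0.19 (adjusted p = 2.0e-13). In the libraries with the YAP1 hairpin and H2O2 its level was 0.624, 0.474, 0.572 and 0.553 CPM. ADAMTS5, a protease that cleaves aggrecan, was at 0.773, 0.871, 0.352 and 0.380 CPM without and at 50.9, 47.5, 51.2 and 54.8 CPM with H2O2 (log2 6.43 ± 0.19). SOX9, a transcription factor that marks injured and regenerating tubule cells, was at 0.832, 1.15, 0.830 and 0.690 and at 68.3, 65.3, 58.2 and 62.7 CPM (log2 6.17 ± 0.16). TBX3, a T-box repressor, was at 0.981, 0.985, 0.805 and 0.690 CPM without and 26.4, 24.8, 28.7 and 26.1 CPM with H2O2 (log2 4.94 ± 0.13). All 4 were close to silent in untreated cells and even among the 4 treated libraries. SIGLEC15, a lectin of the sialic acid binding family, was at 2.73, 3.05, 3.65 and 2.14 and 60.8, 62.8, 56.7 and 59.7 CPM (log2 4.37 ± 0.12), and THBS2, a matricellular thrombospondin, was at 6.15, 6.16, 6.19 and 3.57 and 99.7, 107, 98.4 and 102 CPM (log2 4.21 ± 0.14). The largest rises also took in the actin regulator RFLNA, the vesicle protein DOC2B, the kainate receptor subunit GRIK2, the collagenase MMP13 and the activin subunit INHBA, with log2 differences from 4.36 to 6.04.

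Among the falls, CLSTN2, a synaptic membrane protein, was at 859.5, 890.4, 926 and 1117 CPM in untreated libraries and at 18.4, 17.8, 19.02 and 17.7 CPM with H2O2 (log2 -5.70 ± 0.11, adjusted p = 1.3e-14). With its neighbours' shift removed the difference was -4.94. ATOH8, a helix-loop-helix factor, was at 67.3, 70.6, 67.0 and 52.2 and 1.14, 1.55, 1.55 and 1.21 CPM (log2 -5.56 ± 0.13). SLC34A2, a sodium phosphate cotransporter, was at 13.8, 12.6, 10.7 and 17.1 and 0.152, 0.369, 0.317 and 0.558 CPM (log2 -5.25 ± 0.40). Untreated replicate 4 was highest for CLSTN2 and SLC34A2 and lowest for ATOH8, and the groups did not overlap in these 3 genes. RSPO3, a secreted amplifier of WNT signals, was at 44.7, 42.0, 40.3 and 45.8 and 2.39, 2.02, 1.87 and 2.05 CPM (log2 -4.37 ± 0.10). EPB41L3, which ties membrane proteins to spectrin and actin, was at 81.4, 86.7, 87.9 and 106 and 5.26, 6.15, 4.60 and 5.21 CPM (log2 -4.09 ± 0.12), and NFIB, a factor of the nuclear factor I family, was at 32.4, 37.0, 32.3 and 42.0 and 2.03, 3.30, 1.90 and 2.58 CPM (log2 -3.86 ± 0.16). The long noncoding RNA UCA1, the meiotic gene SHOC1, PSG8, C1orf116 and CA9 completed the largest falls, with log2 differences from -4.12 to -3.81. PSG8 belongs to a family of near-identical genes and another gene covers 38.5% of the exon bases of CA9, so both values are uncertain.

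**Figure D1:**
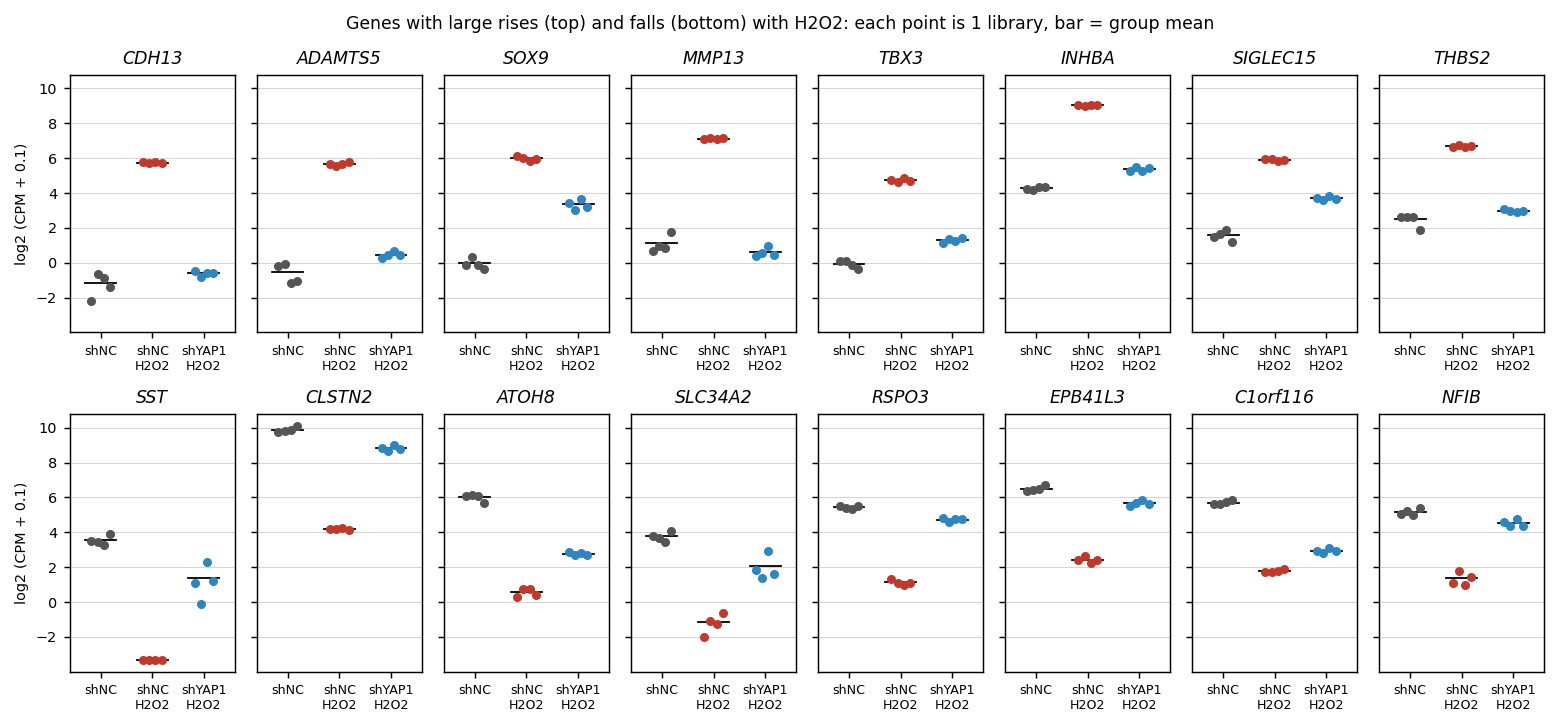
Level of 8 genes with large rises (top) and 8 with large falls (bottom) in every library, on a log2 axis of CPM + 0.1. Each point is 1 library, coloured by group, and the bar marks the group mean: the treated libraries of the control hairpin sit apart from the untreated ones in each panel, while the YAP1-hairpin libraries lie at varying distances from both.

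Some genes went from expressed to all but undetected. SST, the somatostatin hormone, had 372 to 627 counts in each untreated library (11.1, 10.9, 9.46 and 14.9 CPM) and 0 in each treated library. Against the floor of 3 counts per library it was at least 119-fold lower. CYTL1, a secreted cytokine-like protein, had 68 to 113 counts in each untreated library and 0 in each treated one, at least 22.6-fold lower. TRHDE, which degrades thyrotropin-releasing hormone, TCF21, a lineage factor of kidney mesenchyme, and SLCO1A2, an organic anion carrier, had 40 to 90 counts in each untreated library and at most 2 in any treated one. Another gene covers 30.4% of the exon bases of TCF21. In all, 7 genes were at 3 counts or fewer in each treated library with 1 CPM or more in each untreated one. The reverse held for 2 genes: NTNG2, a netrin family adhesion protein, with at most 3 counts in any untreated library and 1.06 to 1.95 CPM with H2O2, and SLC14A1, a urea transporter, with at most 2 counts and 1.28 to 1.59 CPM.

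The genes with the largest gains and losses in CPM had varied roles. FN1, the fibronectin that cells assemble into a pericellular matrix, was at 9021, 8973, 9806 and 11944 CPM without and 20420.0, 19780.0, 22931 and 20809 CPM with H2O2 (log2 1.08 ± 0.12). It took the largest gain in counts of any gene, and untreated replicate 4 was again the highest of its group. ITGA3, the laminin-binding integrin chain, rose from 1277 ± 133 to 2057 ± 68.7 CPM (log2 0.69 ± 0.07). HMGA1, an architectural chromatin protein, rose from 379 ± 57.2 to 1050.5 ± 30.5 CPM (log2 1.47 ± 0.18), and its relative HMGA2 from 170.2 ± 34.7 to 589 ± 35.0 CPM (log2 1.79 ± 0.11). GREM1, a secreted BMP antagonist, rose from 428 ± 49.0 to 980.3 ± 45.5 CPM. AKAP12, a scaffold for protein kinase A, rose from 93.7 ± 4.96 to 811 ± 72.2 CPM (log2 3.11 ± 0.07). The 10 genes with the largest gains took 17417 CPM without and 34298 CPM with H2O2, in sums of group means. The 10 with the largest losses went the other way, from 35163 to 16063 CPM. The losses included AKR1B1 from 3179 ± 141 to 632 ± 3.31 CPM (log2 -2.33 ± 0.06), the aldose reductase that turns glucose into sorbitol, and IGFN1 from 4097 ± 729.9 to 1041 ± 50.2 CPM (log2 -1.98 ± 0.12), a gene of the immunoglobulin and fibronectin III class. ENO1, GAPDH, PKM and LDHA, enzymes of glycolysis, were also among them, as were the actins ACTB and ACTG1, whose near-identical transcripts make each one's value uncertain. SPP1, which encodes osteopontin, fell from 2793 ± 475 to 1442 ± 58.9 CPM. TGFBI, a secreted matrix adapter, fell from 1591 ± 30.4 to 637 ± 30.5 CPM (log2 -1.32 ± 0.06). EEF2, a translation elongation factor, had a log2 difference of 0.33 ± 0.09, and of -0.10 once the shift of its neighbours was removed. Adjusted p was 0.00268 for ACTB and at most 2.1e-05 for the other genes named here that rose or fell.

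Extracellular matrix genes split by type. Of 28 tested matrix glycoproteins, 15 rose and 5 fell, 9 and 2 of them by at least 2-fold, with a median log2 difference of 0.66 against 0.00 over all genes tested. Basement membrane genes had the opposite balance: 2 of 22 rose and 11 fell (median -0.49). FBN1, the backbone of microfibrils, was at 64.3, 63.7, 71.4 and 62.8 CPM without and 519, 517, 535 and 526 CPM with H2O2 (log2 3.00 ± 0.07). LTBP3, which tethers latent TGF-beta to those fibrils, rose from 65.4 ± 9.64 to 372 ± 29.3 CPM (log2 2.51 ± 0.11). LAMC1, the gamma chain of most laminins, was at 1338, 1324, 1404 and 1469.8 CPM without and 491, 492, 504 and 495 CPM with H2O2 (log2 -1.48 ± 0.05, and -1.13 with the shift removed). No treated library reached the lowest untreated one. LAMA1, a laminin alpha chain of early nephron epithelium, fell from 176 ± 13.6 to 62.9 ± 0.991 CPM (log2 -1.49 ± 0.07). FREM2, which anchors epithelia through the Fraser complex, fell from 33.4 ± 3.84 to 6.13 ± 0.624 CPM (log2 -2.45 ± 0.11), whereas its partner FRAS1 rose from 60.1 ± 2.69 to 144 ± 1.07 CPM. NPNT, nephronectin, a ligand of integrin alpha 8 in the kidney, rose from 125 ± 7.59 to 552 ± 17.3 CPM (log2 2.14 ± 0.07). Adjusted p was at most 2.2e-09 for these genes. Without the 2 mitochondrion-rich libraries, 18 glycoproteins rose and 7 fell, and 3 basement membrane genes rose and 13 fell.

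Collagens moved in both directions. Among 30 collagens and collagen enzymes, 13 rose and 9 fell. The chains of collagen VI, a beaded filament, rose: COL6A1 from 121 ± 15.95 to 377 ± 17.0 CPM (log2 1.64 ± 0.09) and COL6A2 from 182 ± 47.5 to 495 ± 10.4 CPM (log2 1.44 ± 0.15). Both lie in a stretch of chromosome 21 that was shifted upward, and the differences without that shift were 1.18 and 0.98. COL1A1, of fibrillar collagen I, rose from 10.1 ± 1.80 to 26.6 ± 1.91 CPM. COL5A1, which starts collagen fibrils, fell from 9.07 ± 0.611 to 1.51 ± 0.349 CPM (log2 -2.57 ± 0.17). The crosslinking enzymes LOX, a lysyl oxidase, and PLOD2, a lysyl hydroxylase, fell, with log2 differences of -1.49 ± 0.07 and -1.44 ± 0.09. The adjusted p of these genes was at most 5.9e-05. Of 30 proteoglycan and hyaluronan genes, 10 rose and 8 fell. LUM, lumican, which spaces collagen fibrils, was at 97.6, 98.6, 96.2 and 103 CPM without and 215, 204, 223 and 225 CPM with H2O2, while VCAN, versican, a large hyaluronan-binding proteoglycan, fell from 697 ± 119 to 401 ± 14.2 CPM. LUM is also on the fibroblast marker list used here. Of the other 4 on that list, PDGFRA and COL3A1 were at or near 0, DCN was at 0.692 CPM without and 1.85 CPM with H2O2, and PDGFRB went the other way, from 2.10 to 1.27 CPM. Nearly all of the list's summed level was LUM.

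The collagenases MMP1 and MMP13 had large rises, while MMP7 and the membrane protease PRSS8 fell. Of 31 metalloproteinases and inhibitors 13 rose and 9 fell, 9 and 3 by at least 2-fold. MMP13, which cleaves fibrillar collagen, was at 1.49, 1.81, 1.71 and 3.35 CPM without and 136, 140.1, 137 and 143 CPM with H2O2. MMP1, the interstitial collagenase, rose from 8.52 ± 0.940 to 126 ± 4.34 CPM (log2 3.89 ± 0.09). MMP7, matrilysin, a protease raised in injured kidney, fell from 93.3 ± 9.32 to 32.7 ± 3.10 CPM (log2 -1.51 ± 0.13), and ADAMTS15 fell from 22.2 ± 3.77 to 4.75 ± 0.399 CPM (log2 -2.22 ± 0.12). Of 28 serine proteases and serpins 11 rose and 10 fell. HTRA1, a secreted protease, rose from 4.04 ± 0.360 to 23.97 ± 4.48 CPM, PLAT, the tissue plasminogen activator, from 9.12 ± 1.06 to 36.7 ± 1.58 CPM, and TFPI2, a Kunitz inhibitor of plasmin, from 61.2 ± 9.34 to 317 ± 17.5 CPM. Falls included an epithelial membrane protease and its inhibitor: PRSS8, prostasin, which activates the epithelial sodium channel, fell from 58.7 ± 4.95 to 20.8 ± 2.33 CPM, and SPINT1, which blocks it, from 73.5 ± 2.73 to 34.7 ± 1.05 CPM. None of these genes had an adjusted p above 2.9e-07. The transcripts of MMP1, MMP13, HTRA1 and PLAT had means of 3.30, 1.43, 6.92 and 13.7 CPM in the libraries with the YAP1 hairpin and H2O2.

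Cell junction genes changed member by member. CLDN2, the cation-permeable claudin of the proximal tubule, was at 43.2, 37.3, 30.0 and 42.3 CPM without and 368, 354, 299 and 336 CPM with H2O2 (log2 3.15 ± 0.16). CLDN1, a sealing claudin, went the other way, from 553 ± 164 to 235 ± 7.28 CPM (log2 -1.24 ± 0.16, and -0.73 without its neighbours' shift). Of 22 tight junction genes 6 rose and 5 fell. Of 9 desmosome genes 1 rose and 5 fell (median -0.47). DSC2, a desmosomal cadherin, was at 25.3, 26.7, 26.1 and 29.1 CPM without and 4.44, 4.68, 5.55 and 5.05 CPM with H2O2 (log2 -2.44 ± 0.09). DSG2, its partner, fell from 238 ± 29.3 to 115 ± 6.90 CPM (log2 -1.04 ± 0.08), and DSP, the plaque protein desmoplakin, rose from 105 ± 4.51 to 182 ± 9.59 CPM (log2 0.79 ± 0.06). Leaving out the 2 mitochondrion-rich libraries gave 2 rises and 5 falls among desmosome genes. Of 18 cadherins 6 rose and 3 fell. CDH6, the cadherin of the early proximal tubule, rose from 251 ± 38.1 to 587 ± 24.6 CPM (log2 1.23 ± 0.15), CDH1, E-cadherin, fell from 5.81 ± 0.813 to 1.21 ± 0.141 CPM (log2 -2.26 ± 0.22) and CDH2, N-cadherin, at 129 ± 10.6 and 120.1 ± 3.25 CPM, did not pass the test. Of 18 integrins 6 rose and 3 fell. ITGA4 fell from 14.3 ± 1.15 to 2.84 ± 0.328 CPM and ITGA5, the fibronectin receptor chain, from 160.5 ± 11.4 to 75.7 ± 2.88 CPM, while ITGA2, of a collagen receptor, rose from 6.72 ± 1.74 to 14.9 ± 0.653 CPM. Adjusted p was at most 2.7e-05 for the genes named here that rose or fell.

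Regulators of the epithelial and mesenchymal states were split, with 5 of 18 higher and 6 lower. ESRP1, which sets epithelial splicing, was at 10.2, 11.4, 11.9 and 12.5 CPM without and 1.65, 1.40, 1.30 and 1.68 CPM with H2O2 (log2 -2.93 ± 0.14), and ESRP2 fell from 52.6 ± 3.64 to 27.2 ± 1.47 CPM. ELF3, an epithelial ETS factor, fell from 79.2 ± 10.0 to 31.2 ± 3.63 CPM. SNAI2, a repressor of E-cadherin, rose from 65.0 ± 13.4 to 185 ± 17.3 CPM (log2 1.51 ± 0.14) and ZEB1, another such repressor, from 14.5 ± 2.14 to 33.0 ± 1.46 CPM. In these genes the treated libraries lay all on one side of the untreated ones. Of 11 tested keratins 5 rose and 1 fell: KRT18 rose from 140.1 ± 8.27 to 209 ± 7.12 CPM and KRT7, of simple and ductal epithelia, from 3.54 ± 0.813 to 43.1 ± 3.53 CPM (log2 3.60 ± 0.15). Each gene named here had an adjusted p of 6.9e-07 or less.

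**Figure D2:**
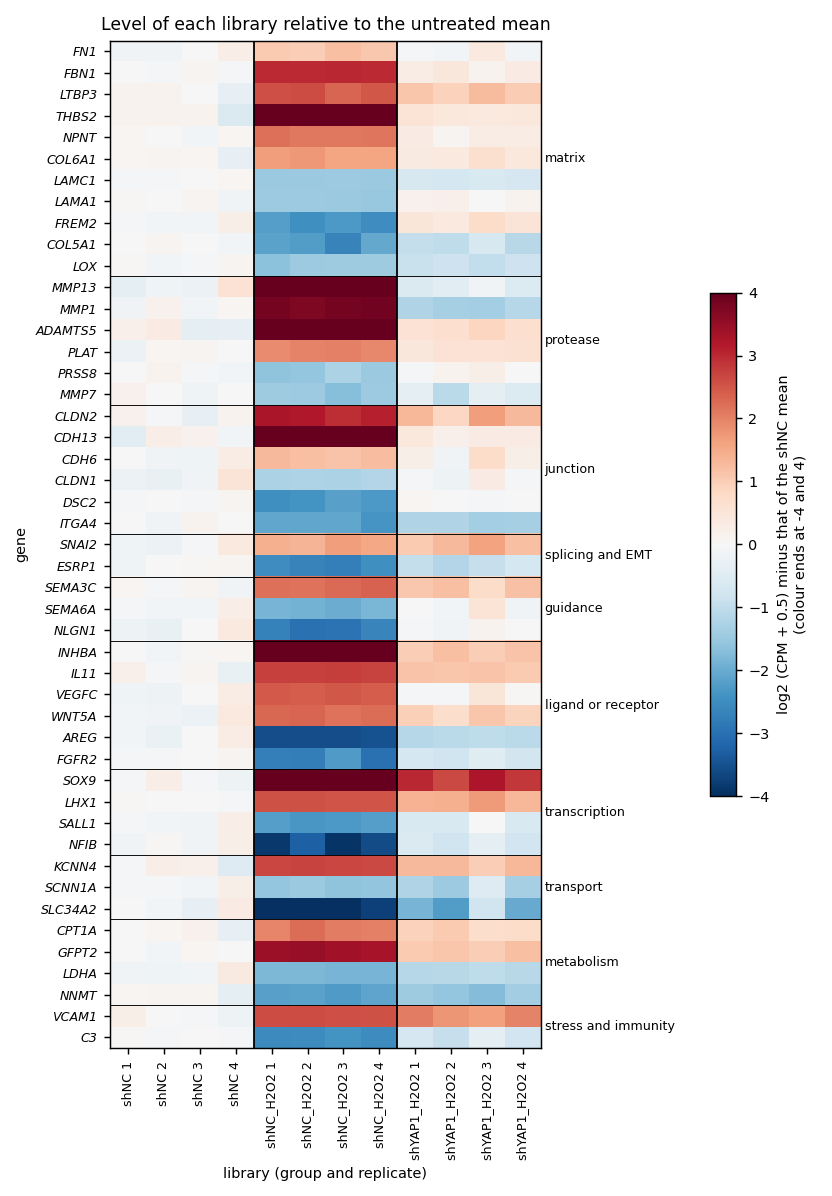
Log2 difference of each library's level (CPM + 0.5) from the mean of the 4 untreated libraries, for 47 genes named in the text, ordered by role. Columns are the 12 libraries by group, and red is higher and blue lower. The 4 treated control-hairpin columns are alike, and untreated replicate 4 departs slightly from its group. The YAP1-hairpin columns are paler for most genes. The genes were named largely for their difference between the control-hairpin groups, so paler columns of another group are no measure of the hairpin.

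Genes first known from axon guidance and synaptic adhesion changed too. These ligands and receptors steer cell contacts in epithelia as well as in neurons. Of 28 semaphorins, plexins and neuropilins 13 rose and 7 fell, 7 and 4 by at least 2-fold. SEMA3C, a secreted semaphorin of the developing kidney, rose from 60.6 ± 4.79 to 290.0 ± 18.4 CPM (log2 2.26 ± 0.10), SEMA5A from 21.2 ± 2.19 to 97.2 ± 4.32 CPM and SEMA6B from 13.1 ± 3.22 to 68.3 ± 7.29 CPM. SEMA6A fell from 93.0 ± 11.9 to 24.6 ± 1.201 CPM (log2 -1.92 ± 0.14). Of 20 ephrins and Eph receptors 10 rose and 5 fell, among them the receptor EPHB4, from 35.2 ± 5.90 to 55.9 ± 1.29 CPM, and the ligand EFNA1, from 19.8 ± 2.49 to 8.66 ± 0.322 CPM. Of 33 synaptic adhesion and scaffold genes 8 rose and 14 fell. NLGN1, a neuroligin, fell from 10.8 ± 2.49 to 1.11 ± 0.201 CPM (log2 -3.27 ± 0.18), and NRXN3, a neurexin that binds neuroligins, from 9.12 ± 1.41 to 1.16 ± 0.0780 CPM (log2 -2.98 ± 0.14). The largest adjusted p among these genes was 1.5e-04.

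Growth factor genes changed at the level of ligands and of receptors. For fibroblast growth factors, 2 of 14 members rose and 7 fell (median -0.56). FGFR2, the receptor of ureteric and tubular epithelium, was at 33.7, 33.5, 35.1 and 37.9 CPM without and 4.88, 4.68, 6.85 and 3.96 CPM with H2O2 (log2 -2.79 ± 0.14), with no overlap. Of 30 genes of VEGF, PDGF, HGF and receptor kinases 11 rose and 9 fell. Those that rose included VEGFC from 16.1 ± 2.80 to 89.8 ± 2.44 CPM (log2 2.48 ± 0.13), the lymphatic growth factor, and PDGFA from 5.87 ± 0.547 to 29.3 ± 0.943 CPM (log2 2.32 ± 0.11), a ligand for mesenchymal cells. AREG, amphiregulin, a ligand of the EGF receptor that is induced in injured tubules, fell from 309.9 ± 51.2 to 26.4 ± 0.436 CPM (log2 -3.56 ± 0.10), and its relatives HBEGF and NRG1 rose by 0.42 ± 0.07 and 0.67 ± 0.08. IL11, a cytokine of fibroblasts and epithelium, was at 19.1, 15.4, 17.8 and 13.4 CPM without and 113, 111, 114 and 109.7 CPM with H2O2 (log2 2.77 ± 0.09). Of 28 activin and TGF-beta genes 13 rose and 7 fell, with LTBP2 from 44.8 ± 3.53 to 294 ± 13.4 CPM (log2 2.71 ± 0.07) and PMEPA1 from 100.3 ± 2.66 to 533 ± 14.1 CPM (log2 2.41 ± 0.07), an inhibitor of the pathway that the pathway itself induces. For the genes named here that rose or fell, adjusted p was at most 1.1e-04.

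Developmental pathways moved with different balances. Of 40 WNT pathway genes 20 rose and 8 fell (median 0.46), of 26 NOTCH pathway genes 15 rose and 3 fell (median 0.58), and of 16 Hedgehog genes 7 rose and 2 fell. The ligands WNT5A and WNT5B, which signal mostly without beta-catenin, rose from 7.03 ± 1.63 to 35.5 ± 1.57 CPM and from 5.27 ± 1.25 to 20.98 ± 1.53 CPM. Log2 differences were also positive for WNT10A (2.24), FZD8 (2.38), SP5 (1.70) and AXIN2 (1.14), and negative for RSPO3 (-4.37) and FRZB (-1.35). Members of the WNT list differ in role, so its counts and median give no direction of signalling. The NOTCH feedback gene NRARP rose from 2.49 ± 0.381 to 19.3 ± 1.44 CPM and DTX1, an E3 ligase of the pathway, from 2.09 ± 0.340 to 27.0 ± 2.33 CPM (log2 3.69 ± 0.12), while the receptor NOTCH3 fell from 21.04 ± 0.697 to 10.6 ± 1.36 CPM. Among NOTCH genes 16 rose and 5 fell without the 2 mitochondrion-rich libraries. In the Hedgehog pathway PTCH1, receptor and target, rose by 1.22 ± 0.10, and SMO, the signal transducer, fell from 10.5 ± 1.22 to 3.08 ± 0.411 CPM. BMP pathway members divided, with 14 higher and 9 lower of 27. GDF6, a BMP ligand, rose from 4.36 ± 0.611 to 42.0 ± 4.17 CPM (log2 3.27 ± 0.14). ID1 and ID3, direct targets of BMP receptors, fell from 217 ± 21.02 to 57.8 ± 2.58 CPM and from 50.5 ± 4.77 to 7.67 ± 0.806 CPM. Adjusted p was at most 1.4e-06 for the genes said in this paragraph to have risen or fallen.

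Among genes that report on kinase signalling, more ERK feedback genes rose than fell. Of 28 ERK feedback genes, which encode phosphatases, Sprouty proteins and ETS factors induced by the kinase ERK, 15 rose and 4 fell, 7 and 0 of them by at least 2-fold. ETV1, such an ETS factor, rose from 17.4 ± 1.56 to 108 ± 7.502 CPM (log2 2.63 ± 0.09), and CCND1, cyclin D1, was at 19.3, 20.1, 19.5 and 19.996 CPM without and 121, 126, 129 and 121 CPM with H2O2 (log2 2.65 ± 0.07). The phosphatases did not share this balance: of 21 tested genes with DUSP symbols, on the list or not, 5 rose and 7 fell (median -0.21). Of 50 G protein coupled receptors 23 rose and 11 fell. ADGRG1, an adhesion receptor, rose from 76.5 ± 3.08 to 207 ± 4.11 CPM. Of 36 genes of cAMP and G protein regulation 14 rose and 6 fell, or 17 and 10 without the 2 mitochondrion-rich libraries. RGS4, which switches off Gq and Gi proteins, rose from 1.04 ± 0.422 to 9.50 ± 0.779 CPM (log2 3.19 ± 0.20). The adjusted p of these genes was at most 3.5e-09.

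Transcription factors of kidney development changed in opposite directions. Of 35 renal and lineage factors 15 rose and 10 fell, 11 and 6 by at least 2-fold. LHX1, a LIM factor of the nephron precursor, was at 45.6, 44.2, 45.3 and 42.8 CPM without and 261, 263, 258 and 254 CPM with H2O2 (log2 2.54 ± 0.08). SALL1, a zinc finger factor of nephron progenitors, was at 248, 241, 238 and 312 and 56.1, 51.8, 52.8 and 55.5 CPM (log2 -2.26 ± 0.14). The groups did not overlap for either gene. HNF4G, of tubule epithelium, fell from 15.1 ± 0.821 to 5.37 ± 0.0621 CPM. Of 34 HOX genes 12 rose and 2 fell, mostly by less than 2-fold (median 0.25). Of 19 clock genes 10 rose and 2 fell, or 12 and 4 without the 2 mitochondrion-rich libraries, with BHLHE40, a clock repressor, from 217 ± 10.8 to 367 ± 10.7 CPM. Among chromatin proteins, HDAC5 rose from 21.3 ± 2.39 to 62.4 ± 1.91 CPM and LBR, the lamin B receptor that holds heterochromatin at the nuclear envelope, fell from 247 ± 4.24 to 112 ± 4.36 CPM (log2 -1.13 ± 0.09). None of these genes had an adjusted p above 4.0e-06.

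Among ion channels more genes rose than fell, and among amino acid carriers more fell. Of 34 potassium channel genes 15 rose and 9 fell, 11 and 6 by at least 2-fold. KCNN4, a calcium-activated channel, was at 4.87, 6.39, 6.09 and 3.495 CPM without and 35.6, 36.8, 35.5 and 35.5 CPM with H2O2 (log2 2.78 ± 0.15), and KCNJ16, a pH-sensitive channel of the tubule's basolateral side, fell from 54.1 ± 7.47 to 18.5 ± 0.644 CPM. Of 43 genes of other ion channels and gap junctions 19 rose and 6 fell, 7 and 4 by at least 2-fold. The connexin GJA3 rose from 3.54 ± 0.307 to 20.5 ± 0.674 CPM, while GJA1, connexin 43, fell from 48.9 ± 2.69 to 14.8 ± 1.12 CPM. Of 40 inorganic ion transporters 13 rose and 6 fell. The sodium pump regulator FXYD2 fell from 10.8 ± 1.17 to 3.15 ± 0.431 CPM and SCNN1A, a chain of the epithelial sodium channel, from 153 ± 17.95 to 51.7 ± 1.97 CPM (log2 -1.56 ± 0.17). PDZK1, which scaffolds apical transporters of the proximal tubule, fell from 138 ± 23.3 to 34.3 ± 1.78 CPM (log2 -2.01 ± 0.11). Of 28 amino acid carriers 7 rose and 11 fell, with the cationic carrier SLC7A2 from 82.7 ± 2.27 to 19.3 ± 0.548 CPM (log2 -2.10 ± 0.08). Each gene named here had an adjusted p of 4.5e-06 or less.

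In glycolysis, the respiratory chain and the citric acid cycle, more nuclear genes fell than rose. Of 25 glycolysis genes 2 rose and 16 fell, 0 and 7 by at least 2-fold (median -0.55, and -0.82 with the shift removed). Without the 2 mitochondrion-rich libraries 4 rose and 20 fell. Of 36 subunits of respiratory complexes III, IV and V encoded in the nucleus 0 rose and 22 fell (median -0.34; 1 and 29 without the 2 mitochondrion-rich libraries), and of 30 citric acid cycle genes 1 rose and 15 fell (median -0.20). SUCLG2, of succinyl-CoA ligase, fell from 119 ± 2.44 to 51.2 ± 2.85 CPM (log2 -1.22 ± 0.06), FH, fumarase, from 105 ± 2.12 to 51.1 ± 1.42 CPM, and ATP5MC1, of the ATP synthase rotor, from 50.1 ± 2.33 to 23.0 ± 2.59 CPM. Of 37 complex I subunits 1 rose and 9 fell, and 1 and 17 without the 2 mitochondrion-rich libraries. With all libraries the share of complex I that fell was not far above the 17.8% of all genes. Without those 2 libraries 24.1% of all genes fell. The 15 mitochondrially encoded genes had a median log2 difference of -0.58, with none called by edgeR or DESeq2 and none at an unadjusted p under 0.05 by either tool. Without the 2 mitochondrion-rich libraries 6 of the 15 rose and 2 fell. LDHA, lactate dehydrogenase, was at 1558, 1501, 1588 and 2183 CPM without and 487, 495, 474 and 473 CPM with H2O2 (log2 -1.82 ± 0.10), and PGAM1, a mutase of glycolysis, fell from 804 ± 170.1 to 255 ± 5.66 CPM. No gene of complexes III, IV and V was higher at an unadjusted p under 0.05 by edgeR or DESeq2. GFPT2, which commits sugar to hexosamine synthesis, rose from 0.851 ± 0.0718 to 13.7 ± 0.730 CPM (log2 4.01 ± 0.12). The largest adjusted p among these genes was 8.2e-08.

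Lipid and cofactor genes were split. CPT1A, which admits long-chain fatty acids to mitochondria, was at 5.73, 6.09, 6.59 and 4.52 CPM without and 23.8, 29.04, 25.5 and 24.9 CPM with H2O2 (log2 2.17 ± 0.12), and EHHADH, of peroxisomal oxidation, fell from 39.5 ± 1.45 to 15.1 ± 0.961 CPM. PLIN2, the coat of lipid droplets, fell from 209 ± 5.71 to 86.3 ± 8.09 CPM. ELOVL2, which extends polyunsaturated fatty acids, fell from 22.2 ± 5.65 to 2.03 ± 0.256 CPM (log2 -3.44 ± 0.18). Of 25 eicosanoid genes 7 rose and 10 fell: HPGD, which inactivates prostaglandins, rose from 4.78 ± 0.545 to 19.5 ± 1.95 CPM and its transporter partner SLCO2A1 from 35.1 ± 7.17 to 100.2 ± 6.14 CPM, while PTGS1, a cyclooxygenase, fell from 41.5 ± 1.75 to 16.3 ± 1.63 CPM. NNMT, which methylates nicotinamide, fell from 353 ± 51.6 to 77.6 ± 3.92 CPM (log2 -2.18 ± 0.10), and NMNAT3, a mitochondrial enzyme of NAD synthesis, from 22.2 ± 0.558 to 2.35 ± 0.280 CPM (log2 -3.25 ± 0.11, and -2.49 with the shift removed). SPHK1, which makes sphingosine 1-phosphate, rose from 30.6 ± 8.76 to 112 ± 4.39 CPM. Adjusted p was at most 4.2e-06 for these genes.

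Stress and clearance lists had different balances. Of 34 hypoxia genes 6 rose and 19 fell, 2 and 8 of them by at least 2-fold. Of 34 NRF2 targets 3 rose and 17 fell, 0 and 4 by at least 2-fold, and of 52 genes of glutathione and peroxide removal 8 rose and 20 fell. Of 38 p53 targets 23 rose and 4 fell, and 3 of them rose and 1 fell by at least 2-fold (median 0.43, and 0.53 with the shift removed). BBC3, which encodes the death protein PUMA, rose from 9.12 ± 2.26 to 22.7 ± 1.36 CPM, TP53INP1, an autophagy and apoptosis cofactor, from 27.3 ± 0.883 to 65.4 ± 2.73 CPM, and FAS, a death receptor, from 8.04 ± 1.73 to 16.5 ± 1.22 CPM. CYFIP2, another target, fell from 46.5 ± 2.88 to 10.1 ± 1.203 CPM (log2 -2.19 ± 0.11). Of 39 apoptosis genes 10 rose and 9 fell, or 11 and 14 without the 2 mitochondrion-rich libraries. The BH3-only gene BMF rose from 8.76 ± 0.713 to 28.9 ± 3.37 CPM (log2 1.72 ± 0.10), and BIRC3, an inhibitor of apoptosis induced by NF-kB, fell from 107 ± 9.24 to 29.7 ± 1.10 CPM (log2 -1.85 ± 0.10). Of 64 lysosome and autophagy genes 13 rose and 11 fell, shares near the 18.9% and 17.8% of all genes, and 18 and 19 did so without those libraries. The acid lipase LIPA rose from 87.2 ± 14.2 to 269 ± 28.8 CPM (log2 1.63 ± 0.11) and the protease CTSH from 98.9 ± 4.77 to 312 ± 17.97 CPM (log2 1.66 ± 0.06), while the proteases CTSL and CTSC fell, with log2 differences of -0.84 ± 0.08 and -0.88 ± 0.08. Of 39 proteasome genes 0 rose and 15 fell, or 0 and 27 without those libraries, none by 2-fold. By position-blind calls 1 proteasome gene was higher by edgeR and 1 by DESeq2, and 2 and 3 were at an unadjusted p under 0.05. The adjusted p of these genes was at most 6.6e-05.

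Inflammatory genes did not move as a block. Of 27 NF-kB signalling genes 4 rose and 11 fell, of 63 interferon-stimulated genes 17 rose and 16 fell, and of 24 complement and acute phase genes 4 rose and 10 fell. VCAM1, an adhesion receptor for leukocytes that injured tubules express, was at 38.1, 32.4, 30.9 and 28.0 CPM without and 198, 200.1, 196 and 193 CPM with H2O2 (log2 2.61 ± 0.10). C3, the central complement protein, was at 744, 702, 729 and 697 and 124, 126, 137 and 125 CPM (log2 -2.49 ± 0.09), and C1S, of the first complement complex, fell from 37.7 ± 2.48 to 7.02 ± 0.918 CPM. SOD2, the mitochondrial superoxide dismutase and a target of NF-kB, was at 863, 824, 833 and 613 and 172, 181, 165 and 178 CPM (log2 -2.17 ± 0.12). Untreated replicate 4 was the lowest of its group for C3 and SOD2, and the groups did not overlap for any of the 3 genes given by library. IL32 fell from 178 ± 10.3 to 57.0 ± 0.780 CPM and the receptor IL6R from 52.2 ± 2.65 to 16.3 ± 1.21 CPM. Among interferon targets IFI44L rose from 9.36 ± 1.74 to 35.9 ± 2.07 CPM (log2 1.94 ± 0.15), IFIT2 from 13.9 ± 1.37 to 36.7 ± 3.65 CPM, and GBP2 fell from 9.49 ± 0.807 to 3.24 ± 0.781 CPM. CD274, the checkpoint ligand PD-L1, rose from 4.38 ± 1.25 to 12.3 ± 2.24 CPM. None of these genes had an adjusted p above 6.7e-06.

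**Figure D3:**
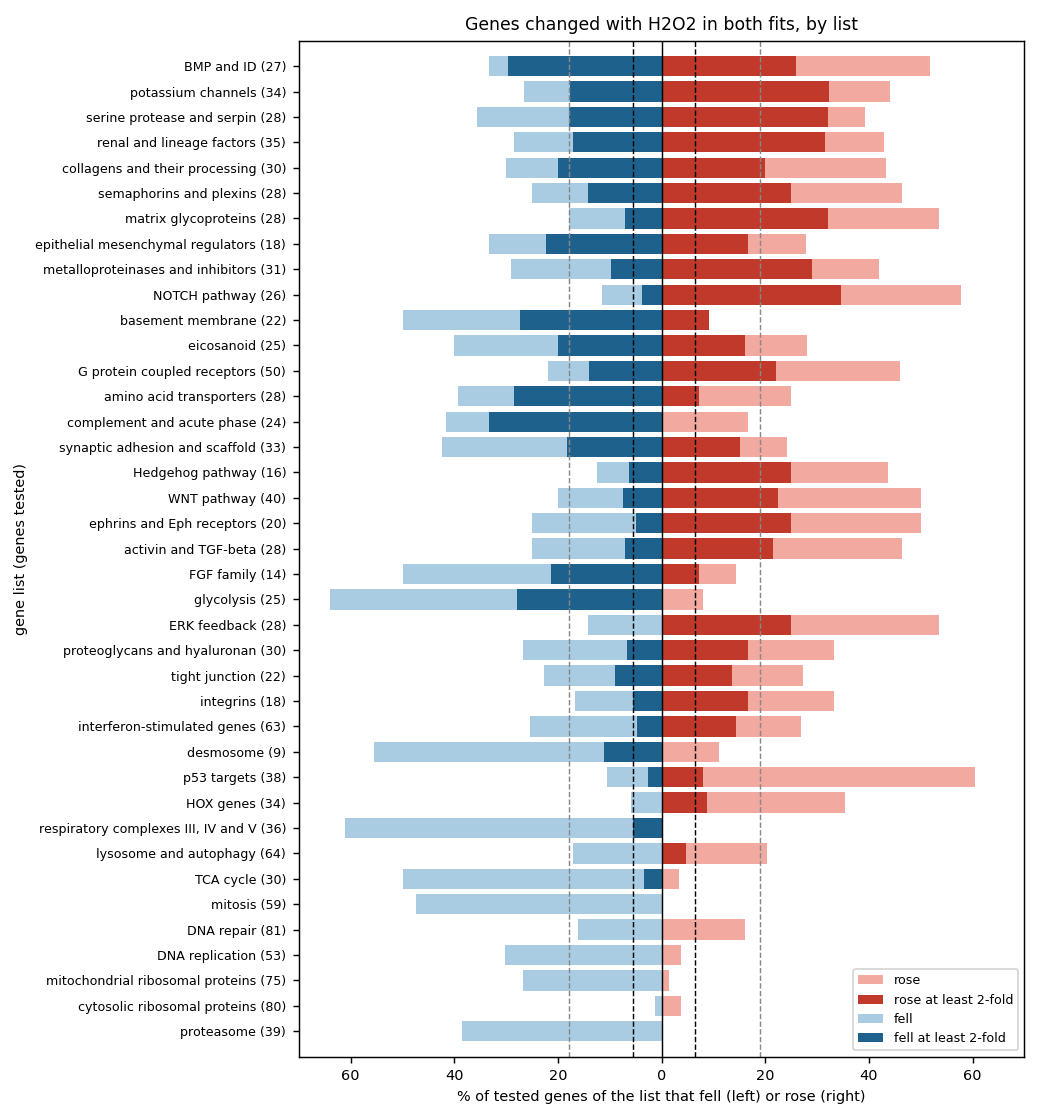
Share of each list's tested genes that rose (right, red) or fell (left, blue), with the dark part for genes changed by at least 2-fold, for 39 lists ordered by the share changed 2-fold. Dashed lines mark the same shares over all tested genes (grey for any size, black for 2-fold): lists of secreted and surface proteins reach far into the dark bars, and the ribosomal, proteasome, replication, repair and mitosis lists have none.

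The genes of the basic machinery of growth and division changed by small amounts. Of 59 mitosis genes 0 rose and 28 fell (median -0.27), of 53 DNA replication genes 2 rose and 16 fell, and of 81 DNA repair genes 13 rose and 13 fell. The shares of repair genes were near the 18.9% and 17.8% of all genes. No gene of these 3 lists changed by 2-fold in both fits, against 11.9% of all genes. No mitosis gene was higher at an unadjusted p under 0.05 by edgeR or DESeq2. The mitotic kinase AURKA was at 142, 148, 145 and 182 CPM without and 89.4, 85.0, 85.1 and 86.2 CPM with H2O2 (log2 -0.84 ± 0.09), and PLK1 fell from 92.9 ± 11.8 to 53.9 ± 1.02 CPM. Without the 2 mitochondrion-rich libraries 40 mitosis genes fell, and 5 replication genes rose and 24 fell, and 19 repair genes rose and 21 fell. Over all genes then tested 24.4% rose and 24.1% fell, and the shares of repair genes were again near these. PARP1, the sensor of DNA breaks, fell from 437 ± 45.4 to 236 ± 10.2 CPM, and ERCC2, a helicase of excision repair, rose from 40.9 ± 2.07 to 78.4 ± 1.48 CPM. Of 75 mitochondrial ribosomal protein genes 1 rose and 20 fell, or 2 and 38 without those libraries. Each gene named here had an adjusted p of 2.3e-04 or less.

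The calls of some machinery lists depended on the chromosomal stretches. Of 80 cytosolic ribosomal protein genes, whose near-identical pseudogenes make single values uncertain, 17 were higher and 7 lower in the fit without regard to position, and 3 and 1 were called the same way once the neighbours' shift was removed. Without the 2 mitochondrion-rich libraries, 15 and 19 were called both ways. Of the DNA replication genes, 8 were higher and 21 lower by position-blind calls. MCM2 and TOPBP1, both of replication origins, had log2 differences of -0.69 and -0.58 but differed by -0.06 and 0.08 from their neighbours. Another gene covers 23.6% of the exon bases of MCM2. The matrix glycoproteins had 15 and 7 calls before and 15 and 5 after, and the WNT list 20 and 8 before and 20 and 8 after. Of 476 tested zinc finger genes with ZNF symbols, many of which lie in clusters, 164 were higher and 67 lower before, and 87 and 53 were called the same way both ways. Of all genes, 1897 calls did not persist in the same direction, 60 of them because the direction turned, and 1168 genes were called only after the removal.

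**Figure D4:**
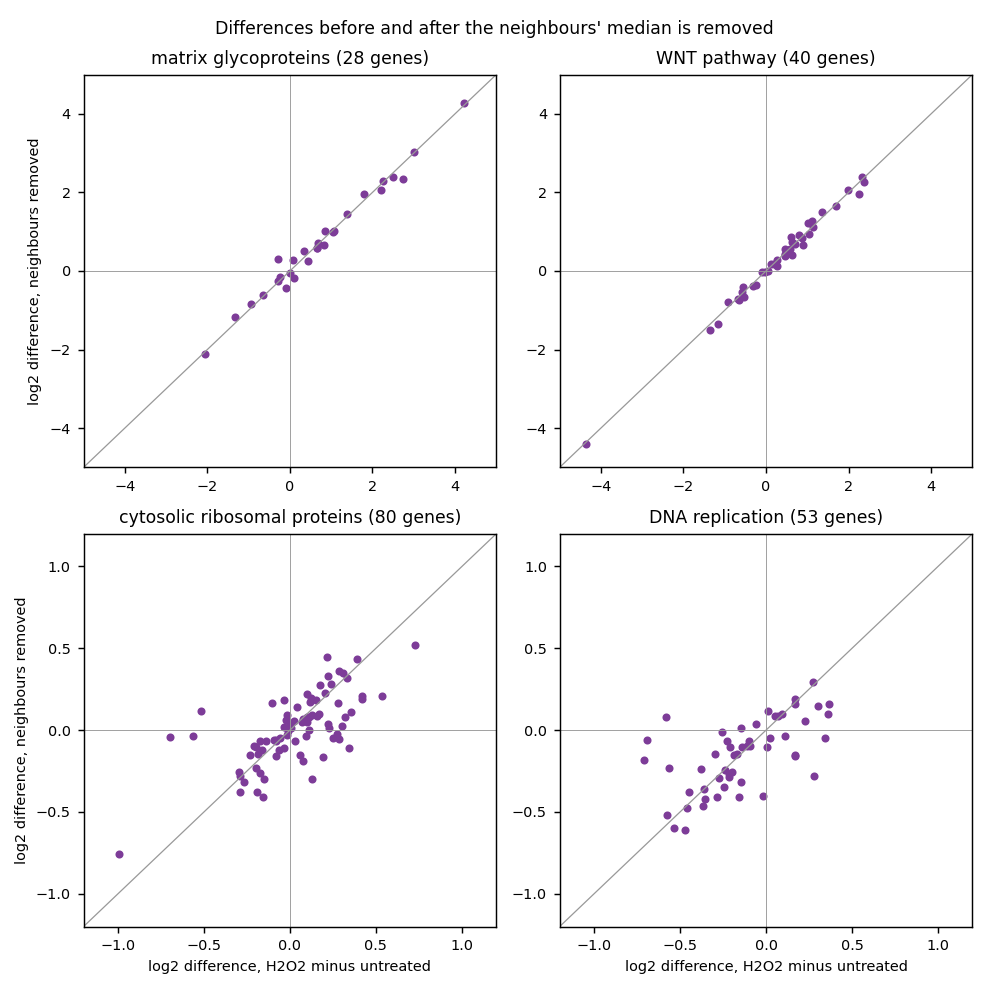
Log2 difference of single genes (treated minus untreated, control hairpin) before (x axis) and after (y axis) the median of their neighbours was removed, in 4 lists, with narrower axes in the lower panels. Points on the diagonal lie in unshifted stretches. Matrix glycoproteins and WNT genes spread over larger differences, so on their wider axes the distances from it look small. Ribosomal protein and DNA replication genes differ little and scatter about it on the narrower axes. The distances can be alike: THBS3, a matrix gene, went from -0.30 to 0.31 and RPL24, a ribosomal gene, from -0.52 to 0.12.

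The sequences before the start sites of some of these genes are shown to let their elements be read beside their changes. They are RefSeq promoters of GRCh38.p14, the last 100 bases before the start on the gene's strand, with matches on either strand in capitals and overlapping matches joined, and were chosen after the values were seen. In the first 4, which belong to genes that rose, capitals mark TGANTCA, a loose form of the site of AP-1, a dimer of FOS and JUN proteins. The usual AP-1 site has G or C at N, and of these only the IL11 match does:
CLDN2: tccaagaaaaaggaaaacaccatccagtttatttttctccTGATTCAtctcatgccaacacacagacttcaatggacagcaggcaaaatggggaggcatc
IL11: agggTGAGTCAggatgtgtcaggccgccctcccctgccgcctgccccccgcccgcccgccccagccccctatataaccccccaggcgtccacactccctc
EMP1: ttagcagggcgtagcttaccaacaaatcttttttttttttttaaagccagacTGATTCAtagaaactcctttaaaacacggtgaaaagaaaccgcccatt
TFPI2: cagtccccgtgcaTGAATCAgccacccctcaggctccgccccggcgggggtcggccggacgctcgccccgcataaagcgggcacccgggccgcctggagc
In the next pair, also of genes that rose, capitals mark the TATA box, TATAAA:
THBS2: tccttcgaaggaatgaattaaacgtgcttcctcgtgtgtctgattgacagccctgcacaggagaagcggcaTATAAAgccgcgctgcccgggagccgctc
VCAM1: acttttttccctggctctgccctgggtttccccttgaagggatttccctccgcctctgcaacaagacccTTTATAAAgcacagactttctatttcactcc
In the last pair, of glycolytic genes that fell, capitals mark ACGTG, the core bound by hypoxia-inducible factors:
LDHA: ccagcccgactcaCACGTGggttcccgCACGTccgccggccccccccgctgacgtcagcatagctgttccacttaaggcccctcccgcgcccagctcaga
GAPDH: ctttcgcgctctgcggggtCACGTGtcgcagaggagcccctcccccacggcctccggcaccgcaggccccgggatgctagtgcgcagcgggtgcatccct
The stretches are CLDN2 at chrX:106900064-106900163 (plus strand), IL11 at chr19:55370464-55370563 (minus strand), EMP1 at chr12:13196626-13196725 (plus strand), TFPI2 at chr7:93890754-93890853 (minus strand), THBS2 at chr6:169253847-169253946 (minus strand), VCAM1 at chr1:100719642-100719741 (plus strand), LDHA at chr11:18394463-18394562 (plus strand) and GAPDH at chr12:6535164-6535263 (plus strand).

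The same motifs were counted in the 250 bases before the start of the 12478 tested genes with a RefSeq promoter, on both strands and with overlaps allowed. TATAAA was found in 5.83% of all of them, in 9.59% of the 740 genes that rose by at least 2-fold and in 12.7% of the 597 that fell by at least 2-fold. TGANTCA, the loose form that admits more than the usual AP-1 site, was found in 4.20%, 5.95% and 5.70% of the same sets. ACGTG was found in 22.9%, 16.6% and 18.1%, and GGAATG, the site of the TEAD factors that bind YAP1, in 9.44%, 11.6% and 9.88%. TGACNNNGC, the core of the antioxidant element bound by NRF2, was found in 12.1%, 11.2% and 11.2%. The differences between these shares were not tested. These are shares in these windows, and a match is not a bound site. EMP1 from 11.7 ± 0.875 to 91.1 ± 1.98 CPM (log2 2.96 ± 0.08), an epithelial membrane protein, and GAPDH from 3285 ± 80.6 to 1510.3 ± 47.1 CPM (log2 -1.12 ± 0.06) complete the values of the genes shown.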

How the data were processed

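RNA-seq counts of 12 libraries in 3 groups of 4 were used. The authors deposited raw counts per gene, 1 table per library, and the tools HISAT2, featureCounts, Subread and DESeq2 and the build GRCh38 are named per the submitters' processing notes, with roles, versions, strand setting and annotation not given in the sources used here. Libraries were made by oligo(dT) selection, per the labels' protocols, which also speak of kidney tissue where the labels name the HK-2 line. Strand use being unknown, genes with over 20% of exon bases in another gene are called uncertain.

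Each table held 40649 genes, 2049 of them without a count, and positions were found for 39306 in GENCODE. Counts were tested with edgeR 4.0.16 (R 4.3.3): filterByExpr by group, TMM scaling and a robust quasi-likelihood fit to all 12 libraries, with Benjamini-Hochberg adjustment over 19268 genes. Differences are log2 with a standard error from the F statistic. The second fit took as offset the median difference of the 25 nearest tested genes of 1 CPM or more on each side. A call needed an adjusted p under 0.05. The tests were checked on simulated counts. CPM used the TMM-scaled library, and 3 counts, the floor, equal 0.0644 to 0.0974 CPM, for counting error only. Named genes were the 12 largest rises and falls at 5 CPM or more, the 10 largest gains and losses in CPM, genes at the floor in 1 group, up to 3 rises and 3 falls per list, and identity markers. Some genes under this rule are not reported here. EMP1 and the printed promoters were chosen after their values were seen. The 106 gene lists, of which those that bear on the text are described, and the members were chosen with earlier results of these data known. Alternatives were other scalings and filters, DESeq2 1.42.0, fewer libraries, a replicate block and the removal of mitochondrially encoded genes.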

Additional observations from a re-analysis of the deposited data

Results flagged for a closer look

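The share of counts from mitochondrially encoded genes was 13.9% in untreated replicate 4, far above the other 3 untreated libraries. Of the genes given library by library, 5 stood apart in the same library: AURKA at 182 CPM, LDHA at 2183 CPM and SALL1 at 312 CPM were above the other untreated libraries, and SOD2 at 613 CPM and THBS2 at 3.57 CPM were below them. Elsewhere FBN1 was at 71.4 CPM in untreated replicate 3, KCNN4 at 36.8 CPM in treated replicate 2 and C3 at 137 CPM in treated replicate 3, each apart from the rest of its group. The flag weighs a gap against the range of the group, so the gap itself can be small, as for KCNN4. Over all 190 named genes, 54 of 380 groups of 4 had a flagged library, and chance gives about 1 in 20. The library was untreated replicate 4 for 37 genes, untreated replicates 1, 2 and 3 for 1, 1 and 2 genes, and treated replicates 2, 3 and 4 for 3, 8 and 2 genes.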

How the results depend on the processing

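Under the 18 alternatives, 4168 to 5823 genes were higher and 3520 to 5780 lower, and 1336 to 1585 and 1111 to 1529 by at least 2-fold, each within 1.5 times the count reported. Scaling by library size alone gave 60.4% of calls as higher against 51.4%, with a median log2 difference over all genes of 0.09. DESeq2 called 4666 higher and 4681 lower. Leaving out 1 library at a time gave 4168 to 4851 higher and 3899 to 4717 lower. The replicate block gave 4448 higher and 4088 lower. Libraries with the same replicate number shared only that number, with correlations of their deviations of -0.0264 to 0.0993. The fit that joined the shift removal with leaving out both mitochondrion-rich libraries was added after seeing the data and gave 5527 higher and 5594 lower. Most named genes were picked among called genes, and the alternatives reuse the same libraries, so most were bound to keep their call. Of 190 named genes, 188 were called, and 3415 of 3420 values under alternatives kept their direction and their side of the threshold. The exceptions were in chromosomal stretches: with the neighbours' shift removed, EEF2 was at -0.10 and TOPBP1 at 0.0797, and with both mitochondrion-rich libraries also left out they were at -0.10 and 0.14, both opposite to the values reported, while MCM2 at -0.06 was no longer called. The depth, with a floor under 0.0974 CPM, does not limit genes at the levels named, except those at the floor in 1 group.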

Other observations

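Retinoid and xenobiotic genes were split, with 15 of 47 higher and 15 lower. CYP1B1, a cytochrome of the aryl hydrocarbon response, rose from 41.2 ± 1.98 to 73.7 ± 5.15 CPM, STRA6, the receptor that takes up retinol, from 14.9 ± 0.645 to 31.7 ± 3.21 CPM, and RDH10, which makes retinal, from 52.4 ± 2.23 to 101 ± 9.19 CPM. ALDH1A3, which makes retinoic acid, fell from 399 CPM to 54.9 CPM and CRABP2, which carries it to the nucleus, from 41.1 ± 2.31 to 19.7 ± 2.41 CPM. Another gene covers 28.6% of the exon bases of ALDH1A3, so its value is uncertain. The vesicle genes SYTL2 and SYTL3, effectors of RAB27 in exocytosis, fell from 168 ± 10.3 to 36.4 ± 2.76 CPM and from 64.3 ± 6.12 to 10.7 ± 0.598 CPM, and CD82, a tetraspanin, rose from 15.5 ± 3.11 to 55.5 ± 2.30 CPM. No gene named in this paragraph, ALDH1A3 included, had an adjusted p above 2.3e-06.

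Genes of glycosylation, the cytoskeleton and the cilium moved both ways. Of 54 glycosyltransferase genes 18 rose and 20 fell: FUT8, which adds the core fucose of N-glycans, rose from 40.1 ± 4.51 to 112 ± 2.41 CPM, GALNT10, which starts O-glycans, from 83.5 ± 4.98 to 257 ± 7.78 CPM, and GALNT18 fell from 13.1 ± 2.91 to 4.99 ± 0.331 CPM. Of 49 genes of microtubules and kinesins 14 rose and 15 fell, with STMN3, a stathmin that destabilises microtubules, from 11.2 ± 0.820 to 59.7 ± 4.20 CPM and KIF26B, an atypical kinesin of the kidney bud, from 6.95 ± 0.404 to 23.9 ± 1.68 CPM. Of 35 actin cytoskeleton and SRF target genes 7 rose and 9 fell, none by 2-fold. Of 64 cilium genes 19 rose and 9 fell, among them PKD1, polycystin 1, from 39.5 ± 8.58 to 73.0 ± 1.81 CPM. None of the 6 genes had an adjusted p above 4.1e-05.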
